A study of Mus musculus with 57 samples.

Results

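Progeny of mouse embryonic stem cells (ESCs) that had switched on FOXA2 alone were compared with progeny of ESCs that had switched on Sox1 alone, 4 days after the start of differentiation. All cells came from the Sox1-EGFP/FoxA2mCherry double reporter line, expanded from a single sorted cell, in which EGFP replaces 1 Sox1 allele and mCherry is fused to FOXA2. All were differentiated in N2B27, a serum-free medium, with retinoic acid (RA, 1 uM), sorted at day 2 (D2) as Sox1-FOXA2+ or Sox1+FOXA2- against wild type R1 cells, and replated in RA in serum-containing medium without LIF on gelatin until D4. The D4 progeny were collected whatever their reporters showed by then, so that each name states the gate of the parents and not the state of the cells measured. The 6 libraries compared, 3 biological replicates of each progeny, were chosen by their labels out of 57 libraries of 19 conditions, and their counts were examined across all genes.

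FOXA2 is a forkhead transcription factor of definitive, visceral and parietal endoderm and of the node, and Sox1 is a SoxB1 factor that marks early neuroectoderm. In the early embryo, GATA6, GATA4 and SOX7 act in the extra-embryonic endoderm that lines the yolk sac. Its parietal layer lays down Reichert's membrane, a thick basement membrane of laminin and type IV collagen, and its visceral layer takes up maternal protein through the receptors megalin and cubilin and secretes apolipoproteins and alpha-fetoprotein. Early neural cells in RA express Pax6, Meis, Hox and COUP-TF factors.

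The 6 libraries held from 10170632 to 81845651 counts, and depth followed the replicate number rather than the gate: replicate 1 had 10170632 counts in the Sox1-FOXA2+ and 11189529 in the Sox1+FOXA2- progeny, replicate 2 had 38702717 and 48091634, and replicate 3 had 73126473 and 81845651. Results with the replicate number as a block are shown beside calls that they alter. Mitochondrial genes took 10.7% to 13.0% of counts in the Sox1-FOXA2+ and 6.76% to 13.4% in the Sox1+FOXA2- progeny. Genes lying wholly within another gene of either strand held no counts over all 57 libraries in 13129 of 13132 cases, against 14.1% of the genes that overlap no other. Sox1 is 1 of them, with 0 counts in every library, as are Sox2 and Tubb3, so that the Sox1 gate could not be checked in the RNA. Foxa2 was measured at 65.1, 59.4 and 29.6 counts per 1000000 (CPM) in the Sox1-FOXA2+ progeny, replicates 1 to 3, and at 9.96, 0.7896 and 4.79 CPM in the Sox1+FOXA2- progeny. The groups did not overlap, and the log2 fold change of 3.35 ± 0.86 (SE) did not pass the test (adjusted p = 0.0971).

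Between the D4 progeny, 408 of 20697 genes tested (1.97%) were called by edgeR's quasi-likelihood test at an adjusted p (Benjamini-Hochberg) under 0.05. Of these, 299 genes (1.44% of those tested) were higher in the Sox1-FOXA2+ progeny, by a median of 2.20 on the log2 scale, and 109 (0.527%) were lower, with a median log2 fold change of -1.63. Changes of at least 3 on the log2 scale were found for 86 of the higher and 6 of the lower genes. In all 408 called genes the 3 libraries of one progeny lay outside the range of the other 3, as they did in 14.1% of genes tested (7.96% with the Sox1-FOXA2+ libraries above the others and 6.09% with them below). With the replicate number as a block, 885 genes (4.28%) were called, 578 (2.79%) higher and 307 (1.48%) lower, among them 396 of the 408. Without Sox1-FOXA2+ replicate 2 or replicate 1, 241 and 252 genes were called, and 167 of the 408 were called whichever library was left out. Such a fit has fewer libraries, so that a lost call need not mean that the difference rested on the library left out. In a single fit of all 57 libraries, 53 genes were called, 52 of them higher. Fewer cells of a type and less RNA per cell cannot be told apart in such bulk libraries.

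**Figure D1:**
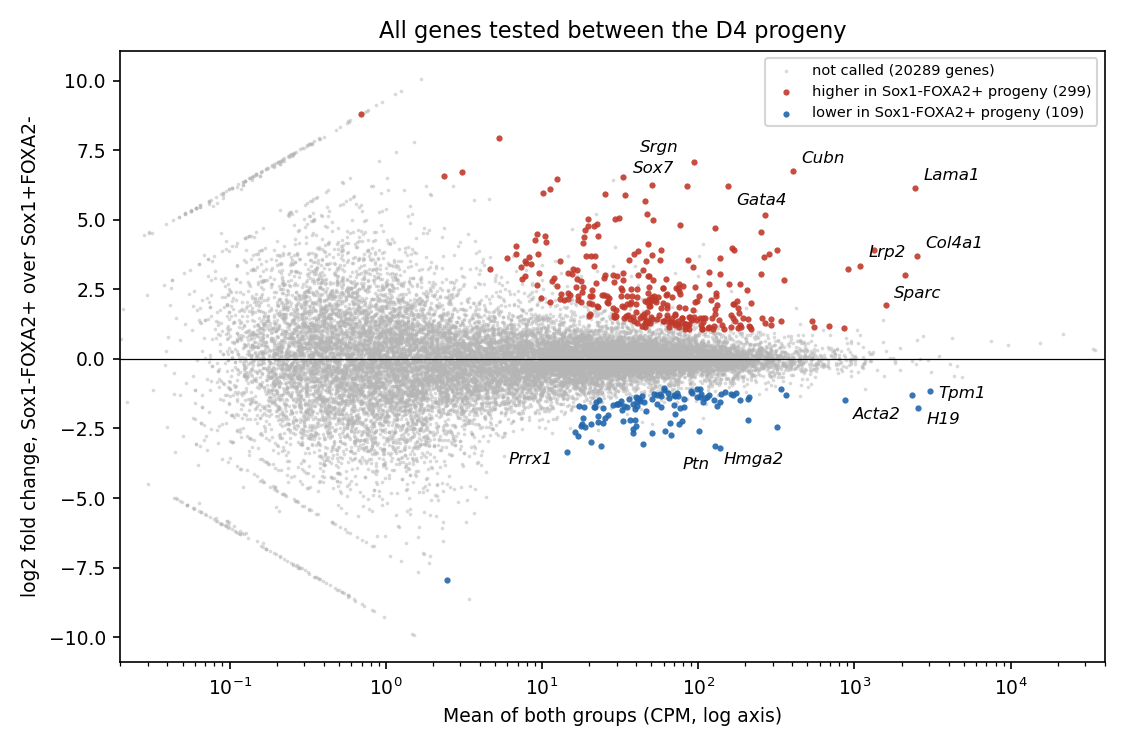
Log2 fold change of Sox1-FOXA2+ over Sox1+FOXA2- progeny at D4 against the mean level of both groups in CPM (log axis), with 1 point per gene tested. Red points are the 299 genes called higher, blue points the 109 called lower and grey points those not called; Lama1, at 6.13, stands far above the other red points of a like level.

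Gene lists were then counted, with the share of all genes called (1.44% higher and 0.527% lower) as background. All lists were chosen with earlier results of these data known, so that their counts are description and no independent support. Lists of the basement membrane and of the enzymes that build it, of endoderm transcription factors, of parietal endoderm markers and of yolk-sac endocytic receptors held from 6 to 8 called genes each, all higher in the Sox1-FOXA2+ progeny. The last of these lists also holds transporters and the enzyme Tdh. Neural progenitor genes, Meis, Pbx and COUP-TF factors, mesenchymal markers and imprinted growth genes held 3 called genes each, all lower. Plagl1 was counted in both the neural progenitor and the imprinted list. Over all genes tested the median log2 fold change was -0.0179, and 49.2% of genes had a log2 fold change above 0.

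**Figure D2:**
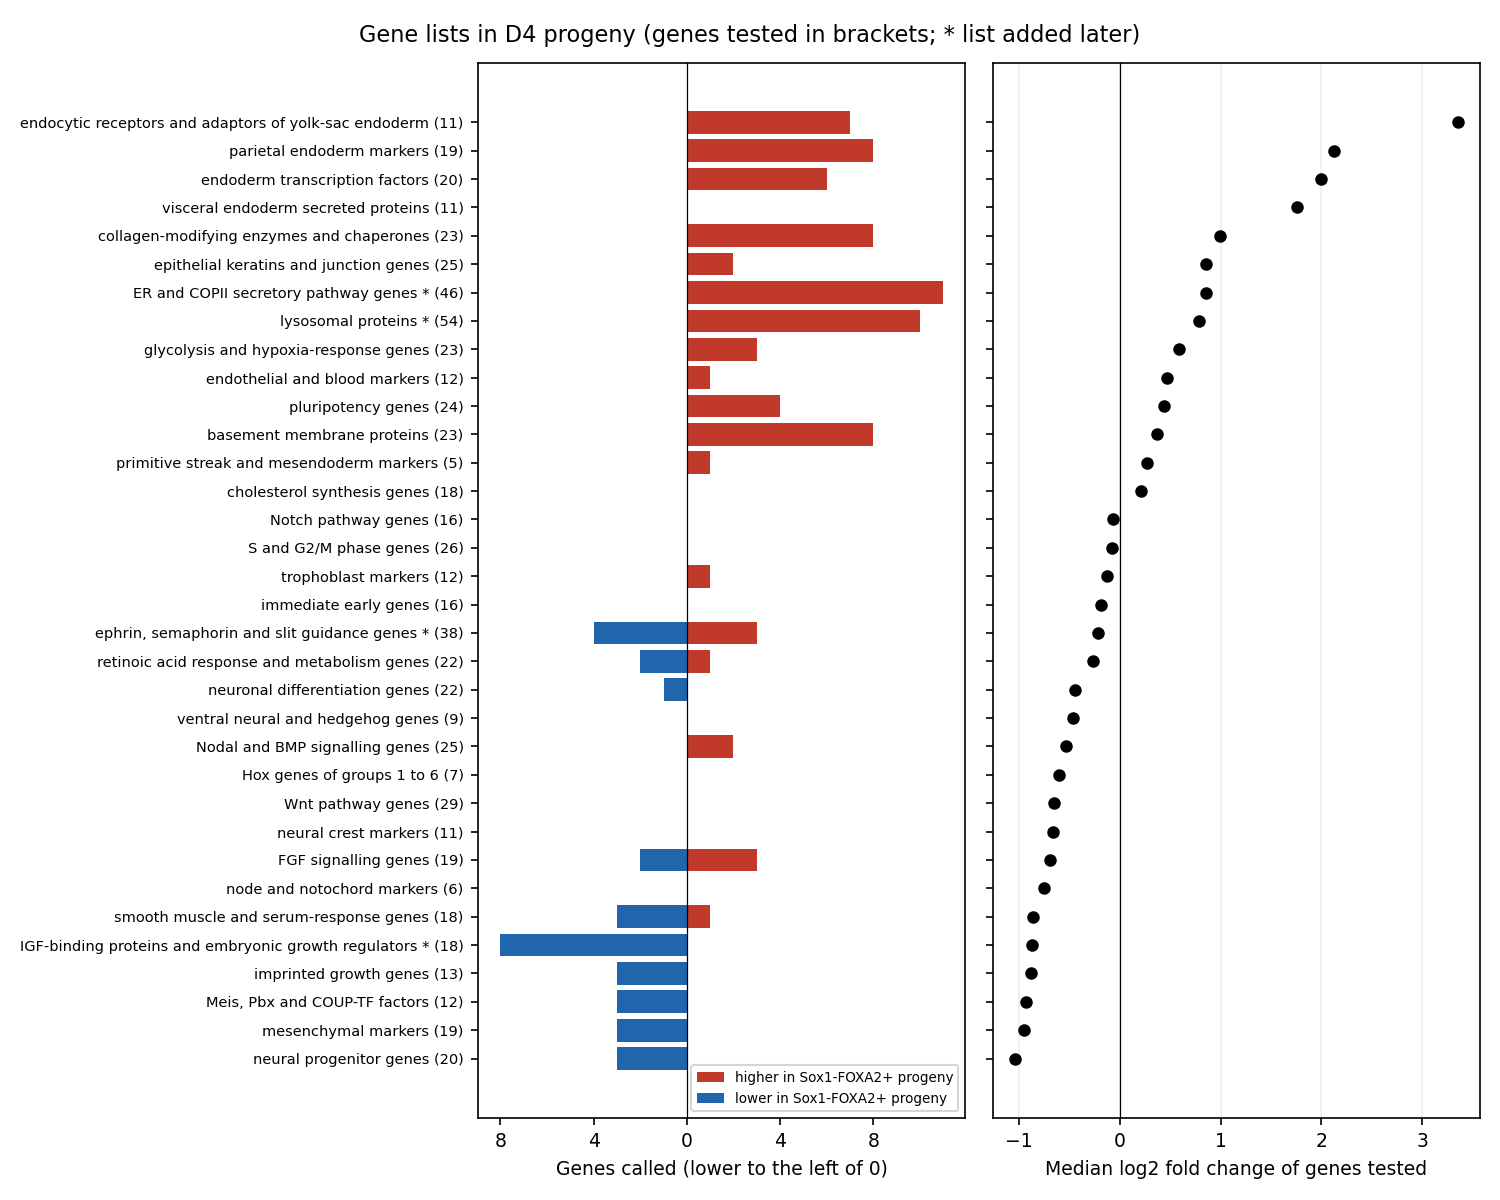
Genes called in each list, with those higher in the Sox1-FOXA2+ progeny to the right and those lower to the left of 0, beside the median log2 fold change of the list's genes tested. Brackets give the number of genes tested, and an asterisk marks the 4 lists written after the called genes had been seen. Medians run from 3.35 for the list of endocytic receptors, which also holds transporters and an enzyme, down to -1.04 for the neural progenitor list.

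Components of the basement membrane stood out among the genes that were higher in the Sox1-FOXA2+ progeny. Of the 10 higher genes with the highest level per kb of exon, 6 were laminin-111 chains, type IV collagen chains or Sparc, and Serpinh1 and P4hb, which fold collagen, were also among them. Lama1 (ENSMUSG00000032796.8, GRCm38 chr17:67697259-67822647, + strand), the alpha chain of laminin-111, stood at 3493, 6380.0 and 4514 CPM in the Sox1-FOXA2+ and at 49.8, 61.4 and 93.8 CPM in the Sox1+FOXA2- progeny. Its log2 fold change was 6.13 ± 0.36 (SE, adjusted p = 9.1e-09), a 70.1-fold difference. The chains that assemble with it moved the same way. Lamb1, the beta chain, was measured at 1937, 3337 and 2182 against 126, 165 and 203 CPM (log2 fold change 3.91 ± 0.31, adjusted p = 5.35e-07). Lamc1, the gamma chain, had 2755, 5152 and 3398 against 470.0, 383 and 557 CPM (log2 fold change 3.0 ± 0.30, adjusted p = 1.4e-05). For each of the 3 chains every Sox1-FOXA2+ library lay far above every Sox1+FOXA2- library, and replicate 2 was the highest of the Sox1-FOXA2+ libraries.

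Col4a1 and Col4a2, the chains of the common type IV collagen, rose together. Col4a1 (chr8:11198423-11312826, - strand) had 5293, 4829 and 3858 CPM in the Sox1-FOXA2+ and 566, 269 and 245 CPM in the Sox1+FOXA2- progeny (log2 fold change 3.69 ± 0.36, adjusted p = 1.24e-05). Col4a2 (chr8:11312805-11449287, + strand) had 1712, 1797 and 1410.0 against 270.3, 126 and 133 CPM (log2 fold change 3.22 ± 0.34, adjusted p = 1.98e-05). In the Sox1+FOXA2- progeny both chains were highest in replicate 1. The genes lie head to head and are read from opposite strands, so that their promoter windows, from 250 bases before to 50 after each start in RefSeq (GRCm38.p6), share 78 bases. These windows are shown because the pair overlaps in them. A role of the shared bases in the parallel change was not tested. Col4a1 spans chr8:11312777-11313076 on the - strand and Col4a2 chr8:11312555-11312854 on the + strand, each written 5′ to 3′ along its own strand, with the shared bases (chr8:11312777-11312854) in capitals.
Col4a1: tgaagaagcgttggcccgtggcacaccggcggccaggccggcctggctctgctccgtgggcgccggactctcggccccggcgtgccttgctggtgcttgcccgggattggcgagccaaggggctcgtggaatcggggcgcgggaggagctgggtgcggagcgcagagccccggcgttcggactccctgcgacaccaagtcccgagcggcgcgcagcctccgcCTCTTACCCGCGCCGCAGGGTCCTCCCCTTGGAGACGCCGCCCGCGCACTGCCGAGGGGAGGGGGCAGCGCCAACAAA
Col4a2: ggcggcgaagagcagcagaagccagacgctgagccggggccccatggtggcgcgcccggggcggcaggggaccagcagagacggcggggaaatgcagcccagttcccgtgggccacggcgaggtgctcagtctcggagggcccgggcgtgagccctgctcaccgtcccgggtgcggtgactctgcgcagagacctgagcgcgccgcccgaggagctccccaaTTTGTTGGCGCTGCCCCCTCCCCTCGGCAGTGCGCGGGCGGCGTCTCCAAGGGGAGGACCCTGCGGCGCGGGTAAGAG

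Of 23 basement membrane genes tested, 8 were called higher and none lower, with a median log2 fold change of 0.37. Besides the laminin-111 and type IV collagen chains these were Sparc, a collagen-binding matricellular protein (1.95 ± 0.29, adjusted p = 0.0005), the nidogen Nid2 (1.47 ± 0.31, adjusted p = 0.015) and the heparan sulphate proteoglycan perlecan, Hspg2 (1.13 ± 0.26, adjusted p = 0.025). Sparc had 1856, 3353 and 2335 against 527, 737 and 687 CPM. Not all laminins moved with them: Lama5 stood at 159.8, 106 and 165 against 229, 116 and 147 CPM, with overlapping groups (-0.19 ± 0.28, adjusted p = 0.925). Nid1, the other nidogen, had a log2 fold change of 0.94 ± 0.33 (adjusted p = 0.232, with the replicate block 0.0406). The call of Nid2 did not hold without Sox1-FOXA2+ replicate 3 (adjusted p = 0.0615), and that of Hspg2 without Sox1-FOXA2+ replicates 2 or 3 or Sox1+FOXA2- replicates 2 or 3 (adjusted p from 0.0613 to 0.128).

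Enzymes and chaperones that modify and fold collagen were higher as well, 8 of 23 tested against 1.44% of all genes, and their median log2 fold change was 0.99. P4ha1 and P4ha2, catalytic subunits of prolyl 4-hydroxylase, had log2 fold changes of 2.69 ± 0.36 (adjusted p = 0.00023) and 3.06 ± 0.40 (adjusted p = 0.00024). P4ha1 stood at 161, 366 and 286 against 34.7, 33.95 and 57.2 CPM. The lysyl hydroxylase Plod2 had 140.2, 517 and 384 against 53.1, 67.1 and 68.9 CPM (2.46 ± 0.39, adjusted p = 0.00131), and Colgalt1, which adds galactose to hydroxylysine, had 117, 128 and 134 against 26.4, 16.8 and 26.9 CPM (2.44 ± 0.33, adjusted p = 0.00023). The groups did not overlap for any of these 4 genes, and their calls held without any single library. The prolyl 3-hydroxylase P3h2 (2.15), the lysyl hydroxylase Plod3 (1.48), the shared subunit P4hb (1.17) and the collagen chaperone Serpinh1 (1.16) were also called. The call of Plod3 did not hold without Sox1-FOXA2+ replicates 2 or 3 or Sox1+FOXA2- replicates 1 or 2 (adjusted p from 0.0586 to 0.168). P4hb lost its call without Sox1-FOXA2+ replicates 2 or 3 or Sox1+FOXA2- replicates 1 or 2 (adjusted p from 0.0545 to 0.138), and Serpinh1 without Sox1-FOXA2+ replicate 2 or Sox1+FOXA2- replicates 2 or 3 (adjusted p from 0.0507 to 0.0998). With the replicate block, 10 genes of this list were higher and 1 was lower, and 5 were called on leaving out the second replicate of either progeny.

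Endoderm transcription factors were higher in the Sox1-FOXA2+ progeny in 6 of 20 genes tested, with a median log2 fold change of 2.00. Gata4 (chr14:63198922-63271692, - strand), a zinc finger factor of extra-embryonic endoderm and heart, had 317, 353 and 250.4 CPM in the Sox1-FOXA2+ and 1.92, 7.48 and 2.61 CPM in the Sox1+FOXA2- progeny, a log2 fold change of 6.22 ± 0.54 (adjusted p = 1.62e-05). Gata6, which specifies primitive endoderm, had 163, 291 and 174 against 14.9, 38.5 and 18.3 CPM (3.12 ± 0.36, adjusted p = 4.73e-05). In both genes replicate 2 was the highest library of each progeny, and the progeny did not overlap.

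The forkhead gene Foxq1, of whose exon bases 66.1% lie within another gene and which may be undercounted, had 29.8, 19.3 and 24.4 against 0, 0.592 and 0.128 CPM (6.46 ± 0.90, adjusted p = 0.000301). Tcf7l2, a partner of beta-catenin at Wnt targets, changed least of the 6 called genes (1.36 ± 0.25, adjusted p = 0.00477). Sox7, which acts with GATA factors in parietal endoderm, had 167, 256 and 80.3 against 1.53, 0.316 and 4.58 CPM (6.23 ± 1.03, adjusted p = 0.0217). Its groups did not overlap, but the call was lost with the replicate block (adjusted p = 0.137) and without Sox1-FOXA2+ replicates 1 or 2 or Sox1+FOXA2- replicate 1 (adjusted p from 0.0632 to 0.184). Sox17, a factor of definitive and extra-embryonic endoderm, stood at 43.5, 53.6 and 25.2 against 0, 10.1 and 3.21 CPM and was not called (adjusted p = 0.412), nor was the nuclear receptor Hnf4a at 17.1, 4.73 and 4.399 against 2.299, 0.178 and 1.096 CPM (adjusted p = 0.196).

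**Figure D3:**
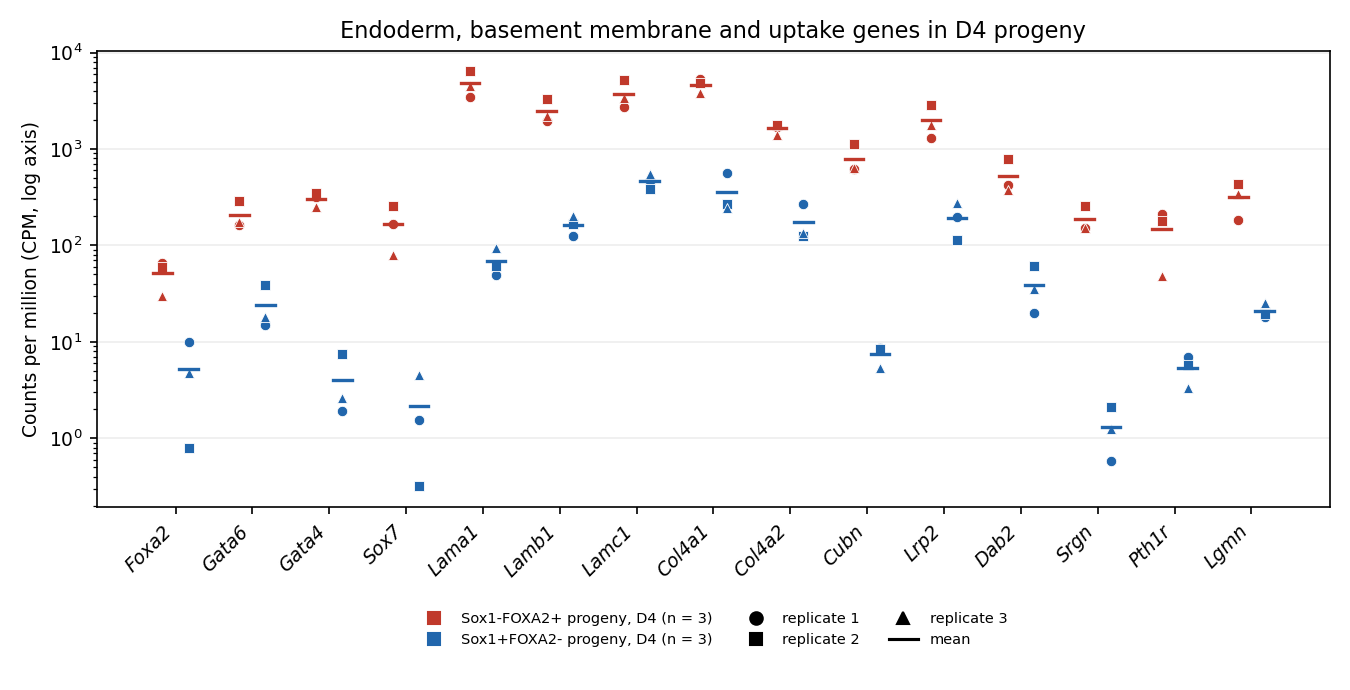
CPM of 15 genes of endoderm, basement membrane and uptake in each library of the D4 progeny (log axis), with Sox1-FOXA2+ progeny in red, Sox1+FOXA2- progeny in blue, a symbol for each replicate and a bar for the mean of 3. Each red group lies above its blue group without overlap, with wide gaps for Srgn, Cubn, Gata4 and Lama1; Foxa2, with its wide blue spread, did not pass the test.

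The list of receptors and adaptors of yolk-sac endocytosis also holds transporters and the enzyme Tdh. It had the highest median of the lists, 3.35 on the log2 scale, and 7 of 11 genes tested were called, all higher. Cubn, cubilin, which binds the intrinsic factor complex and albumin (chr2:13276338-13491813), stood at 620.1, 1130.0 and 640.0 CPM in the Sox1-FOXA2+ and at 8.62, 8.43 and 5.31 CPM in the Sox1+FOXA2- progeny (6.75 ± 0.41, adjusted p = 1.16e-08). Lrp2, megalin, its partner at the apical membrane, had 1304, 2874 and 1769 against 195, 114 and 273 CPM (3.35 ± 0.39, adjusted p = 6.29e-05). The chaperone of megalin, Lrpap1, had 604, 622 and 572 against 25.9, 30.7 and 62.1 CPM (3.92 ± 0.41, adjusted p = 2.61e-05), and the clathrin adaptor Dab2 had 419, 789 and 379.6 against 20.1, 60.95 and 35.7 CPM (3.76 ± 0.51, adjusted p = 0.00128). These 4 genes kept their calls whichever library was left out and with the replicate block. Amn, amnionless, which carries cubilin to the membrane, had 19.96, 17.8 and 7.06 against 4.598, 0.355 and 1.895 CPM and was not called (adjusted p = 0.225). The folate receptor Folr1 had 29.5, 32.4 and 29.8 against 13.2, 3.51 and 8.39 CPM (adjusted p = 0.0594, with the replicate block 0.0214). The remaining called genes, none of them a receptor or adaptor, were Tdh, threonine dehydrogenase (6.13 ± 0.90), the metal transporter Slc39a8 (4.17 ± 0.78) and the chloride transporter Clcn5 (1.83 ± 0.41). Slc39a8 lost its call without Sox1+FOXA2- replicate 2 (adjusted p = 0.0669), and Clcn5 without Sox1-FOXA2+ replicates 2 or 3 or Sox1+FOXA2- replicates 1 or 2 (adjusted p from 0.0923 to 0.283).

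Parietal endoderm markers gave 8 called genes of 19 tested, all higher, with a median log2 fold change of 2.12. Srgn, the granule proteoglycan serglycin, had 152, 259 and 151 against 0.575, 2.09 and 1.25 CPM (7.07 ± 0.67, adjusted p = 6.42e-05), the largest change of the called genes that kept their call whichever library was left out. Pth1r, the receptor of parathyroid hormone-related peptide, which promotes parietal differentiation, had 211, 181 and 47.7 against 6.897, 5.803 and 3.32 CPM (4.80 ± 0.52, adjusted p = 5.13e-05), with replicate 3 the lowest of both groups. Stra6, the receptor of retinol-binding protein, had 28.9, 40.99 and 34.6 against 5.75, 7.18 and 8.56 CPM (2.28 ± 0.40, adjusted p = 0.00296). The activin antagonist Fst had 144, 490.4 and 134 against 21.1, 24 and 17.1 CPM (3.63 ± 0.69, adjusted p = 0.0278), a call lost without Sox1+FOXA2- replicates 1, 2 or 3 (adjusted p from 0.173 to 0.279). Pdgfra, a growth factor receptor of primitive endoderm, rose least (1.31 ± 0.27, adjusted p = 0.011), and its call did not hold without Sox1-FOXA2+ replicate 2 (adjusted p = 0.113). Ctsl (3.04), the coagulation inhibitor Tfpi (2.12) and Nostrin (2.97) completed the list, with the call of Tfpi lost without Sox1+FOXA2- replicate 1 (adjusted p = 0.0697) and that of Nostrin without Sox1-FOXA2+ replicate 1 or Sox1+FOXA2- replicates 2 or 3 (adjusted p from 0.0725 to 0.167). On leaving out Sox1+FOXA2- replicate 1 or replicate 2, the list held 5 called genes. The classical parietal markers thrombomodulin, Thbd (3.52, 12.3 and 11.4 against 1.72, 2.76 and 0.511 CPM), and tissue plasminogen activator, Plat (28.3, 61.1 and 42.7 against 22.2, 35.1 and 32.5 CPM), were not called (adjusted p = 0.302 and 0.653).

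Counts of genes for secreted products of visceral endoderm were low in both progeny. Of 23 listed genes 11 passed the filter on low counts, and none was called by edgeR (2 at an unadjusted p under 0.05 and 1 by DESeq2), with a median log2 fold change of 1.76. Transthyretin, Ttr, had 2, 86 and 16 counts in the Sox1-FOXA2+ libraries and 0 in each Sox1+FOXA2- library, and Afp, alpha-fetoprotein, had 8 counts in Sox1-FOXA2+ replicate 2 and 0 in the other 5 libraries. As 63.8% of the exon bases of Afp lie within another gene, it may be undercounted. The same holds for Apoc2 (99.4%), Trf (95.9%) and Apoa4 (81.2%), so that the sum of the list may be too low. The summed level of the list was 68.7 to 117 CPM in the Sox1-FOXA2+ and 25 to 49.9 CPM in the Sox1+FOXA2- progeny.

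Epithelial genes were called in 2 of 25 cases, both higher and with a list median of 0.86, and 5 were higher with the replicate block. They were the membrane protease St14 (57.1, 84.5 and 117 against 23.6, 17.3 and 18.3 CPM, 2.13 ± 0.36, adjusted p = 0.00213) and the splicing factor Esrp1 (3.42 ± 0.82, adjusted p = 0.0325), whose call did not hold without Sox1-FOXA2+ replicates 1, 2 or 3 or Sox1+FOXA2- replicate 3 (adjusted p from 0.0686 to 0.137). Krt8, a simple-epithelial keratin, stood at 1062, 935 and 541 against 481, 403 and 348 CPM (adjusted p = 0.121, with the replicate block 0.00326). Cdh1, E-cadherin, overlapped between the groups at 166, 200.2 and 272 against 65.8, 48.02 and 203 CPM (adjusted p = 0.599).

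Calls were also found among lysosomal and secretory genes. Both lists were written after the called genes had been seen and give no independent support. Of 54 lysosomal genes tested, 10 were called higher and none lower, and the median log2 fold change was 0.78, with 47 above 0. With the replicate block 17 were higher. Lgmn, the asparaginyl protease legumain, had 184, 430.5 and 346 against 18.01, 19.7 and 25.1 CPM (3.93 ± 0.40, adjusted p = 1.62e-05). Ctsz, cathepsin Z, had 48.4, 90.96 and 62.6 against 8.24, 18.7 and 15.5 CPM (2.24 ± 0.41, adjusted p = 0.00433), and Gaa, acid alpha-glucosidase, had 58.2, 88.6 and 81.3 against 12.3, 17.2 and 31.2 CPM (1.91 ± 0.36, adjusted p = 0.00593). Gnptab, a subunit of the enzyme that tags proteins for the lysosome, had 54.96, 41.5 and 62.8 against 9.77, 7.698 and 15.7 CPM (2.26 ± 0.37, adjusted p = 0.00137). Ctsl, cathepsin L, which parietal endoderm secretes, had 240.3, 540.0 and 563 against 44.2, 46.7 and 72.7 CPM (3.04 ± 0.45, adjusted p = 0.00154), a call lost without Sox1+FOXA2- replicate 1 (adjusted p = 0.0716) or Sox1+FOXA2- replicate 2 (0.0503). In the list of the endoplasmic reticulum and COPII vesicles 11 of 46 genes were called, all higher, with a median of 0.85. This count rested on every library: it was 1 without Sox1-FOXA2+ replicate 2, 3 without Sox1+FOXA2- replicate 3, 5 without Sox1+FOXA2- replicate 1 or replicate 2, and 7 without Sox1-FOXA2+ replicate 1 or replicate 3, against 19 with the replicate block. Qsox1, which forms disulphide bonds in secreted proteins, had 49.9, 37.9 and 67.03 against 13.2, 12.4 and 15.4 CPM (1.91 ± 0.36, adjusted p = 0.0059) and kept its call without any single library. Sec24d, a cargo adaptor of COPII vesicles, had 108, 148 and 112 against 45.98, 63.2 and 45.6 CPM (1.25 ± 0.28, adjusted p = 0.0216), a call lost without Sox1+FOXA2- replicate 3 (adjusted p = 0.105) or Sox1-FOXA2+ replicate 2 (0.143).

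Several of the 15 largest increases belonged to none of the lists described so far, though Fgf3 is in the FGF list below. Fgf3, a secreted fibroblast growth factor, had 15.03, 14.4 and 2.41 against 0, 0 and 0.0852 CPM (7.94 ± 1.81, adjusted p = 0.0275), and its call did not hold without Sox1-FOXA2+ replicates 1 or 2 or Sox1+FOXA2- replicates 1, 2 or 3 (adjusted p from 0.06 to 0.158). Spata18, a regulator of mitochondrial quality, had 0.9395, 0.825 and 2.401 CPM against 0 counts in all 3 Sox1+FOXA2- libraries. Its Sox1-FOXA2+ counts, pooled so that the deepest library weighs most, came to 1.83 CPM. That was 94.5-fold above a floor of 3 counts over the Sox1+FOXA2- group (0.0193 CPM). Its call (adjusted p = 0.0245) did not hold without Sox1-FOXA2+ replicate 3 or Sox1+FOXA2- replicates 2 or 3 (adjusted p from 0.0573 to 0.109). Eva1a, a membrane protein tied to autophagy, had 85.3, 69.3 and 41.4 against 0, 1.03 and 0.788 CPM (6.54 ± 0.71, adjusted p = 5.12e-05). Nxf7, a relative of the mRNA export factor Nxf1, had 104, 118 and 75.2 against 0.958, 1.62 and 1.24 CPM (6.25 ± 0.51, adjusted p = 7.69e-07), and the potassium channel subunit Kcng1 had 11.98, 35.7 and 12.6 against 0.383, 0 and 0.575 CPM (5.97 ± 1.06, adjusted p = 0.00393). These 3 kept their calls whichever library was left out. The hyaluronan-binding protease Habp2 (6.72 ± 1.69) lost its call without Sox1-FOXA2+ replicates 1, 2 or 3 or Sox1+FOXA2- replicates 2 or 3 (adjusted p from 0.0639 to 0.181). The sulphatase Arsi (6.58 ± 1.65) lost it without Sox1-FOXA2+ replicates 1, 2 or 3 or Sox1+FOXA2- replicates 1 or 2 (adjusted p from 0.0558 to 0.193), and the serpin Serpinb6c (5.91 ± 1.11) with the replicate block (adjusted p = 0.148) and without Sox1-FOXA2+ replicates 1 or 2 or Sox1+FOXA2- replicates 1 or 2 (adjusted p from 0.0695 to 0.18). Fabp3, a fatty acid-binding protein and the third of the higher genes by level per kb of exon, had 367, 668 and 407 against 19.2, 16.7 and 25.8 CPM (4.55 ± 0.49, adjusted p = 8.33e-05).

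Signalling genes changed singly. In the FGF list 3 genes of 19 were higher, Fgf3 and the receptors Fgfr3 (2.82) and Fgfr4 (2.87), and 2 were lower, the receptor Fgfr1 (-1.26) and the inhibitor Spred1 (-1.23). All 5 calls were lost in some of the fits that left out 1 library. Fgfr3 lost its call without Sox1-FOXA2+ replicates 1 or 2 or Sox1+FOXA2- replicate 3 (adjusted p from 0.0547 to 0.111). Fgfr4 lost it without Sox1-FOXA2+ replicates 1, 2 or 3 or Sox1+FOXA2- replicates 1, 2 or 3 (adjusted p from 0.0596 to 0.466). Fgfr1 lost it without Sox1-FOXA2+ replicates 1, 2 or 3 or Sox1+FOXA2- replicate 3 (adjusted p from 0.0532 to 0.211), and Spred1 without Sox1-FOXA2+ replicates 1 or 2 or Sox1+FOXA2- replicates 2 or 3 (adjusted p from 0.0892 to 0.161). Over these fits the list held 0 to 3 higher and 0 to 3 lower genes, and none in either direction without Sox1-FOXA2+ replicate 1, Sox1-FOXA2+ replicate 2 or Sox1+FOXA2- replicate 3. Dusp6, a phosphatase that FGF signalling induces, had 18.6, 52.3 and 59.7 against 64.6, 158 and 119 CPM (-1.38 ± 0.38, adjusted p = 0.0807, with the replicate block 0.000603). In the Nodal and BMP list 2 of 25 genes were called, both higher. They were the ligand Bmp6 (99.7, 40.5 and 77.3 against 8.14, 1.5 and 6.599 CPM, 3.77 ± 0.54, adjusted p = 0.0005) and the BMP-binding protein Bmper (49.6, 81 and 107 against 20.6, 19.4 and 14.9 CPM, 2.12 ± 0.34, adjusted p = 0.00125).

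Retinoid genes moved in both directions, with 1 higher and 2 lower of 22 tested. Rdh10, which makes retinaldehyde, had 43.9, 56.7 and 63.7 against 2.68, 10.6 and 14.7 CPM (2.53 ± 0.47, adjusted p = 0.00492). Aldh1a2, which makes RA from retinaldehyde, had 3.52, 6.11 and 8.07 against 30.1, 37.2 and 22.5 CPM (-2.32 ± 0.43, adjusted p = 0.00486). Crabp2, which carries RA to its receptors, had 14.6, 20.6 and 22.2 against 54.8, 49.9 and 81.8 CPM (-1.70 ± 0.36, adjusted p = 0.0133), a call lost without Sox1+FOXA2- replicate 3 (adjusted p = 0.0824) or Sox1-FOXA2+ replicate 1 (0.0703). Cyp26a1, which degrades RA, had 127, 252 and 229.5 against 1.72, 8.37 and 24.1 CPM (4.12 ± 0.89, adjusted p = 0.0732, with the replicate block 0.0185). The groups did not overlap for any of these 4 genes, and Cyp26a1 passed the test with the block alone.

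Pluripotency genes were called in 4 of 24 cases, all higher in the Sox1-FOXA2+ progeny. They were the de novo DNA methyltransferase Dnmt3b (279, 199 and 134 against 23.4, 26.5 and 44.3 CPM, 2.70 ± 0.37, adjusted p = 0.000301), its cofactor Dnmt3l (2.55 ± 0.47, adjusted p = 0.00536), the Krüppel-like factor Klf4 (86.9, 105 and 52.7 against 14.6, 19.7 and 22.5 CPM, 2.10 ± 0.36, adjusted p = 0.00262) and the T-box factor Tbx3 (1.22 ± 0.30, adjusted p = 0.0373). Dnmt3l lost its call without Sox1+FOXA2- replicate 1 (adjusted p = 0.0549), and Tbx3 without Sox1-FOXA2+ replicates 1 or 2 or Sox1+FOXA2- replicate 2 (adjusted p from 0.123 to 0.174). Of the core factors, Pou5f1 stood at 17.7, 1.82 and 6.14 against 13.4, 0 and 6.64 CPM (adjusted p = 0.983) and Nanog at 8.22, 1.98 and 2.53 against 4.02, 2.704 and 21.1 CPM (adjusted p = 0.9). The groups overlapped for both.

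Glycolysis and hypoxia-response genes were called in 3 of 23 cases, all higher, and in 7 with the replicate block. Pfkl, a phosphofructokinase, had 234, 288 and 124 against 38.1, 51.5 and 44.1 CPM (2.27 ± 0.32, adjusted p = 0.000301). Tpi1, triosephosphate isomerase (1.49 ± 0.33, adjusted p = 0.0178), lost its call without Sox1-FOXA2+ replicates 1 or 2 or Sox1+FOXA2- replicate 3 (adjusted p from 0.0662 to 0.128). The angiogenic factor Vegfa (1.36 ± 0.27, adjusted p = 0.0089) lost it without Sox1-FOXA2+ replicate 1 (adjusted p = 0.0623), where 1 gene of the list was called.

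In the neural progenitor list 3 of 20 genes tested were lower in the Sox1-FOXA2+ progeny (5 with the replicate block), and none was higher. The 3 were Plagl1, which the imprinted list also holds, Sox9 and Cdh2. The median log2 fold change of the list was -1.04. Of 32 listed genes 12 were not tested. Of these, 3 lie wholly within other genes: Sox1, Sox2 and Pou3f3. The others did not pass the filter on low counts. Among them Fabp7, Dbx1, Hes5, Neurog1 and Neurog2 held 0 counts in each Sox1+FOXA2- library. Olig2, Pou3f2, Zic1 and Nkx6-1 held at most 34 counts in any of these libraries. Hes5 (49.16% of exon bases) and Zic1 (34.85%) lie partly within another gene and may be undercounted. Plagl1, an imprinted zinc finger factor, had 44.4, 104 and 72.5 against 282, 552 and 188 CPM (-2.21 ± 0.40, adjusted p = 0.00655). Sox9 had 58.7, 69.8 and 43.1 against 138, 194 and 114 CPM (-1.38 ± 0.29, adjusted p = 0.0133), a call lost without Sox1+FOXA2- replicate 2 (adjusted p = 0.0678) or Sox1-FOXA2+ replicate 3 (0.0573). N-cadherin, Cdh2, which mesenchymal cells also carry, had 84.5, 80.3 and 192 against 340.0, 309.5 and 264 CPM (-1.35 ± 0.30, adjusted p = 0.0216) and lost its call without Sox1-FOXA2+ replicate 1 (adjusted p = 0.13) or Sox1-FOXA2+ replicate 2 (0.116). Pax6, a defining factor of neural progenitors, had 2.35, 3.85 and 2.01 against 15.3, 14.1 and 6.96 CPM and was not called (-2.14 ± 0.64, adjusted p = 0.115, with the block 0.0724). Nes, an intermediate filament of neural and other progenitors, had 377, 162 and 224 against 932, 586 and 388 CPM (-1.32 ± 0.39, adjusted p = 0.127, with the block 9.25e-05). Neither gene overlapped between the groups. Of 22 neuronal genes tested, the growth cone protein Gap43 alone was called (18.4, 9.27 and 11.7 against 65.5, 82.6 and 33.2 CPM, -2.21 ± 0.44, adjusted p = 0.0089). 

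The COUP-TF factors Nr2f1 and Nr2f2, nuclear receptors that RA induces, were both lower. Nr2f1 had 6.34, 3.85 and 4.37 against 52.1, 54.9 and 20.7 CPM (-3.15 ± 0.53, adjusted p = 0.00201), and Nr2f2 had 54.3, 79.95 and 73.9 against 126, 275 and 213 CPM (-1.56 ± 0.29, adjusted p = 0.00477). Meis2, a homeodomain partner of Hox and Pbx proteins, had 176, 146 and 303 against 579.8, 471 and 503 CPM (-1.31 ± 0.30, adjusted p = 0.0241), a call lost without Sox1-FOXA2+ replicate 1 (adjusted p = 0.131) or Sox1-FOXA2+ replicate 2 (0.127). They were the called genes of 12 tested in the list of these factors, and 6 were called lower with the replicate block and 5 without Sox1-FOXA2+ replicate 3. Of 18 Hox genes of groups 1 to 6, 9 lie wholly within another gene and 7 were tested, of which edgeR called none (2 at an unadjusted p under 0.05, 1 by DESeq2).

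**Figure D4:**
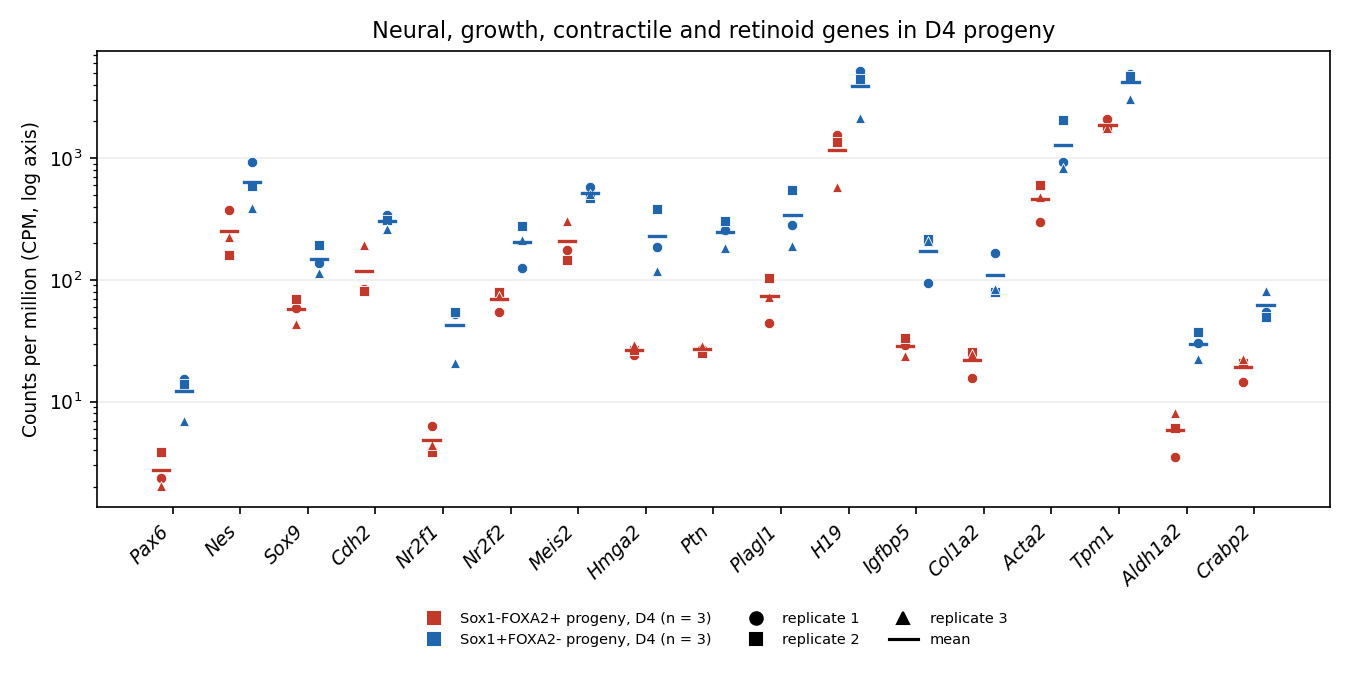
CPM of 17 neural, growth, contractile and retinoid genes in each library of the D4 progeny (log axis), with Sox1-FOXA2+ progeny in red, Sox1+FOXA2- progeny in blue, a symbol for each replicate and a bar for the mean of 3. The red groups lie below the blue ones without overlap in all 17 genes, Pax6 and Nes included, which did not pass the test without the replicate block (Nes did with it).

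Markers of mesenchymal and contractile cells moved with the neural genes. Prrx1, a homeodomain factor of mesenchyme, had 3.99, 2.31 and 1.66 against 23.9, 46.4 and 8.24 CPM (-3.34 ± 0.60, adjusted p = 0.00384), and Col1a2, a chain of fibrillar collagen, had 15.7, 25.6 and 24.8 against 168, 79.6 and 83.7 CPM (-2.31 ± 0.33, adjusted p = 0.000418). With the bHLH factor Twist1 (-1.73 ± 0.41, adjusted p = 0.0314), whose call did not hold without Sox1-FOXA2+ replicates 1, 2 or 3 or Sox1+FOXA2- replicate 2 (adjusted p from 0.0829 to 0.253), they made up 3 lower genes of 19 tested. Acta2, smooth muscle actin, had 299, 605 and 474 against 936, 2066 and 824 CPM (-1.47 ± 0.34, adjusted p = 0.025), a call lost without Sox1-FOXA2+ replicates 1 or 3 or Sox1+FOXA2- replicate 2 (adjusted p from 0.0733 to 0.159). Tropomyosin, Tpm1, had 2090.0, 1758 and 1761 against 4860.0, 4714 and 3029 CPM (-1.17 ± 0.26, adjusted p = 0.0187), a call lost without Sox1+FOXA2- replicate 2 (adjusted p = 0.0529) or Sox1-FOXA2+ replicate 2 (0.0547). In the list of smooth muscle and serum-response genes 3 of 18 were lower, with desmin, Des (-2.21 ± 0.46, adjusted p = 0.0138, lost without Sox1-FOXA2+ replicate 1 (adjusted p = 0.0731) or Sox1-FOXA2+ replicate 3 (0.0632)), as the third, and 1 was higher. With the replicate block 6 were lower and 2 higher, and the lower count was 1 without Sox1-FOXA2+ replicate 1 or Sox1+FOXA2- replicate 2. The higher gene was Ccn2, a matricellular target of YAP and serum response factor, at 72.6, 178 and 165 against 8.05, 28.9 and 29.8 CPM (2.63 ± 0.47, adjusted p = 0.00655).

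Summed over each whole list, neural progenitor genes stood at 496 to 743 CPM in the Sox1-FOXA2+ and 1240 to 1980 CPM in the Sox1+FOXA2- progeny. At the levels given above, Nes, Plagl1, Cdh2 and Sox9 made up most of the latter sum, and Pax6 little of it. Nes and Cdh2 are not confined to neural cells, and Plagl1 is also in the imprinted list, so that the sum does not measure neural cells alone. Mesenchymal markers stood at 257 to 698 CPM in the Sox1-FOXA2+ and 614 to 1700 CPM in the Sox1+FOXA2- progeny, with overlapping ranges, and smooth muscle and serum-response genes at 3610 to 4270 CPM in the Sox1-FOXA2+ and 5680 to 9300 CPM in the Sox1+FOXA2- progeny. The part of mesenchymal or contractile cells in the lower genes was not tested.

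Regulators of embryonic growth were lower in the Sox1-FOXA2+ progeny. Hmga2, a chromatin protein of proliferating embryonic cells, had 23.96, 26.5 and 28.9 against 186, 383 and 118 CPM (-3.11 ± 0.39, adjusted p = 0.00012). Lin28b, which blocks let-7 maturation, had 30.3, 40.8 and 59.1 against 115, 129.6 and 110.4 CPM (-1.44 ± 0.28, adjusted p = 0.00779). H19, an imprinted non-coding RNA and the lower gene of highest level per kb of exon, had 1549, 1348 and 583 against 5136, 4493 and 2136 CPM (-1.76 ± 0.37, adjusted p = 0.0143), a call lost without Sox1+FOXA2- replicate 1 (adjusted p = 0.0518) or Sox1+FOXA2- replicate 2 (0.0513). Mest, an imprinted hydrolase, had 35.6, 94.9 and 166 against 342, 657 and 624 CPM (-2.45 ± 0.49, adjusted p = 0.0193), a call lost without Sox1-FOXA2+ replicate 2 or Sox1+FOXA2- replicates 1, 2 or 3 (adjusted p from 0.0899 to 0.222). The imprinted cell cycle inhibitor Cdkn1c had 10.6, 22.2 and 17.8 against 51.2, 165 and 38.3 CPM (-2.33 ± 0.58, adjusted p = 0.0684, with the replicate block 0.00028). With Plagl1, H19 and Mest made up 3 called genes of 13 imprinted growth genes tested, all lower, and 8 were lower with the replicate block, against 1 without Sox1+FOXA2- replicate 1 or replicate 2. Igf2, which lies almost wholly within another gene, held 0 counts and could not be tested. In a list of IGF-binding proteins and related growth regulators, written after these genes had been seen, 8 of 18 genes were lower and none higher. With the replicate block 10 were lower, the count was 5 without Sox1+FOXA2- replicate 1, and 1 gene was higher without Sox1-FOXA2+ replicate 3. The lower genes included Igfbp5 (29.4, 33.1 and 23.7 against 94.6, 216 and 208 CPM, -2.59 ± 0.35, adjusted p = 0.000256) and Igfbp3 (12.2, 40.1 and 30.3 against 90.04, 167 and 136 CPM, -2.24 ± 0.36, adjusted p = 0.0013).

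Among the 15 largest decreases were genes for secreted and surface proteins. Ptn, the growth factor pleiotrophin, had 27.2, 24.9 and 28.5 against 254, 307 and 183 CPM (-3.21 ± 0.41, adjusted p = 0.00024). The repulsive guidance cue Sema3a had 9.63, 7.79 and 16.7 against 61.2, 71.9 and 63.5 CPM (-2.52 ± 0.38, adjusted p = 0.00062), and the glutamate transporter of glia, Slc1a3, had 20.9, 16.2 and 15.6 against 201, 66.3 and 83.5 CPM (-2.74 ± 0.42, adjusted p = 0.000847). The transcriptional cofactor Lbh (-3.06), cadherin 11 (Cdh11, -2.67), tenascin C (Tnc, -2.65), the protocadherin Pcdh18 (-2.62) and the Wnt pathway formin Daam2 (-2.60) kept their calls on leaving out each library as well. The progesterone receptor Pgr (-2.78 ± 0.62) lost its call without Sox1-FOXA2+ replicates 1 or 2 or Sox1+FOXA2- replicate 2 (adjusted p from 0.0993 to 0.354). Adamts2, a procollagen protease (-2.99 ± 0.73), lost it with the replicate block (adjusted p = 0.139) and without Sox1-FOXA2+ replicates 1 or 2 or Sox1+FOXA2- replicates 1 or 2 (adjusted p from 0.0961 to 0.298). The pseudogene Vmn2r-ps69 had the most negative fitted log2 fold change of the called genes, with 13.8, 0.474 and 0.415 CPM in the Sox1+FOXA2- progeny and at most 0.0275 CPM in the Sox1-FOXA2+ progeny (-7.95 ± 2.05). Its call was lost with the replicate block (adjusted p = 0.104) and without Sox1-FOXA2+ replicates 1, 2 or 3 or Sox1+FOXA2- replicate 1 (adjusted p from 0.136 to 0.625).

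A list of guidance genes, also written after the calls had been seen, held calls in both directions, 3 higher and 4 lower of 38 tested. The lower count was 8 with the replicate block and 8 without Sox1-FOXA2+ replicate 3. It was 2 when Sox1-FOXA2+ replicate 1 was left out, and 1 when replicate 2 was. The ephrin receptor Ephb3 had 116, 85.04 and 82.5 against 1.34, 8.45 and 11.2 CPM (3.72 ± 0.55, adjusted p = 0.0013), and Sema6d, a membrane semaphorin, had 46.5, 149 and 59.5 against 13.4, 11.7 and 7.77 CPM (2.96 ± 0.42, adjusted p = 0.000372). The secreted repellent Slit2 had 23.7, 18.4 and 62.3 against 138, 98.7 and 115 CPM (-1.75 ± 0.41, adjusted p = 0.032), a call lost without Sox1-FOXA2+ replicates 1 or 2 or Sox1+FOXA2- replicates 1 or 3 (adjusted p from 0.0693 to 0.198). Epha7 had 22.1, 19.4 and 24.4 against 78.3, 59.5 and 49.4 CPM (-1.50 ± 0.30, adjusted p = 0.00928), a call lost without Sox1-FOXA2+ replicate 2 (adjusted p = 0.0527). The ephrin receptors Epha2 (1.47 ± 0.36, adjusted p = 0.0373) and Epha3 (-2.40 ± 0.60, adjusted p = 0.0423) lost their calls with the replicate block (adjusted p = 0.0943 and 0.135), Epha2 also without Sox1-FOXA2+ replicates 1, 2 or 3 or Sox1+FOXA2- replicates 1, 2 or 3 (adjusted p from 0.0514 to 0.127) and Epha3 also without Sox1-FOXA2+ replicates 1, 2 or 3 or Sox1+FOXA2- replicates 1 or 2 (adjusted p from 0.063 to 0.171).

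Lists of other programmes showed few or no calls. Markers of the primitive streak (1 of 5 tested, Fst), of trophoblast (1 of 12, Tead4, 1.87) and of endothelium and blood (1 of 12, Runx1, 1.85) each held 1 called gene. In 10 lists no gene was called by edgeR, namely Notch, Wnt, hedgehog, Hox, neural crest, node and notochord, immediate early, cell cycle, cholesterol synthesis and visceral endoderm secretion genes. Of the 149 genes tested in them, 24 had an unadjusted p under 0.05, DESeq2 called 13 and edgeR with the replicate block 9.

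Promoter windows were read for 215 of the higher and 82 of the lower genes, and for 14076 of all genes tested, that had a RefSeq entry, and motifs were searched on both strands. The GATA motif, AGATAA or TGATAA, was found in 14.9% of the higher, 17.1% of the lower and 15.1% of all tested genes. A forkhead motif, TGTTTAC or TGTTTGC, was found in 8.37%, 8.54% and 8.06%. A SOX motif, ACAATGG or ACAAAGG, was found in 6.98%, 6.10% and 8.71%. The nuclear receptor motif AGGTCA was found in 15.3%, 6.10% and 16.2%, and the E-box CAGCTG in 25.1%, 24.4% and 18.9%. None of these shares was tested.

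To see how the difference between the gates stood at other stages, the change of the log2 difference was tested in joint fits. The D2 cells were taken from N2B27 with RA straight from the sorter, so that time, medium, replating and sorting all differ from the D4 progeny and cannot be told apart. Against these cells, 13 of 23600 genes (0.0551%) were called, and 13 with the replicate block. The Sox1-FOXA2+ over Sox1+FOXA2- log2 difference changed upwards in 9 and downwards in 4 of them (5 and 8 with the block). Lrp2 changed by 3.67 ± 0.54 (adjusted p = 0.00738). On the scale of all 57 libraries it stood at 284, 299 and 369.7 CPM in Sox1-FOXA2+ and at 417, 616 and 198 CPM in Sox1+FOXA2- cells at D2, with overlapping groups, and at 1438, 3303 and 2032 against 216, 131 and 314 CPM in the D4 progeny, without overlap. Hmga2 changed the opposite way, by -4.14 ± 0.66 (adjusted p = 0.0118). At D2 it stood at 99.3, 163 and 111 CPM in Sox1-FOXA2+ and at 82.9, 81.5 and 25.3 CPM in Sox1+FOXA2- cells. The groups did not overlap, and their order was opposite to that in the D4 progeny. The difference at D2 alone was not tested. The call of Lrp2 did not hold without D4 progeny Sox1+FOXA2- replicate 1 (adjusted p = 0.0987) and that of Hmga2 without D4 progeny Sox1-FOXA2+ replicate 2 (adjusted p = 0.0824).

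At D2, Lama1 stood at 87.6, 535 and 727 CPM in Sox1-FOXA2+ and at 158, 103 and 48.4 CPM in Sox1+FOXA2- cells, and its difference did not pass as changed (3.94 ± 0.88, adjusted p = 0.214). Gata4 stood at 2.299, 38.9 and 32.3 against 2.59, 2.62 and 0.608 CPM (2.53 ± 1.43, adjusted p = 0.724). In both genes replicate 1 of the D2 Sox1-FOXA2+ cells lay within the range of the Sox1+FOXA2- libraries and the other two lay above it.

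Against cells kept in N2B27 with RA and sorted at D4, where replating, medium and sorting differ and cannot be told apart, edgeR called 0 of 25318 genes (0.0%) for a changed difference (1179 at an unadjusted p under 0.05, and 359 by DESeq2). Lama1 stood at 11410.0, 4655 and 7943 CPM in Sox1-FOXA2+ and at 114, 48.05 and 32.5 CPM in Sox1+FOXA2- cells sorted at D4, and at 3850.0, 7332 and 5186 against 54.98, 70.6 and 108 CPM in the D4 progeny on the same scale. Igfbp5 had a change of -4.23 ± 0.75 that did not pass (adjusted p = 0.159): it stood at 305, 297 and 122 CPM in Sox1-FOXA2+ cells sorted at D4 and at 159, 27.5 and 51.6 CPM in Sox1+FOXA2- cells, with overlapping groups, and was lower without overlap in the Sox1-FOXA2+ progeny.

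Against the D6 progeny, edgeR called 0 of 24025 genes (0.0%; 1300 at an unadjusted p under 0.05, and 66 by DESeq2). Cubn came near the threshold (adjusted p = 0.0577, with the replicate block 0.0493), with a difference larger at D4 by 3.91 ± 0.58. It stood at 505, 517 and 909 CPM in Sox1-FOXA2+ and at 75.8, 134 and 62.5 CPM in Sox1+FOXA2- progeny at D6, against 9.52, 9.69 and 6.12 CPM in the latter at D4. In simulated libraries 16.0% of changes of 3 on the log2 scale were recovered for the comparison with D4 sorted cells and 37.0% for that with the D6 progeny, so that most changes of that size would be missed at this depth and spread. In the same simulations 87.45% and 51.15% of the DESeq2 calls, in that order, were false. These shares depend on the 200 genes changed in each simulation and give no share of false calls in the data.

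**Figure D5:**
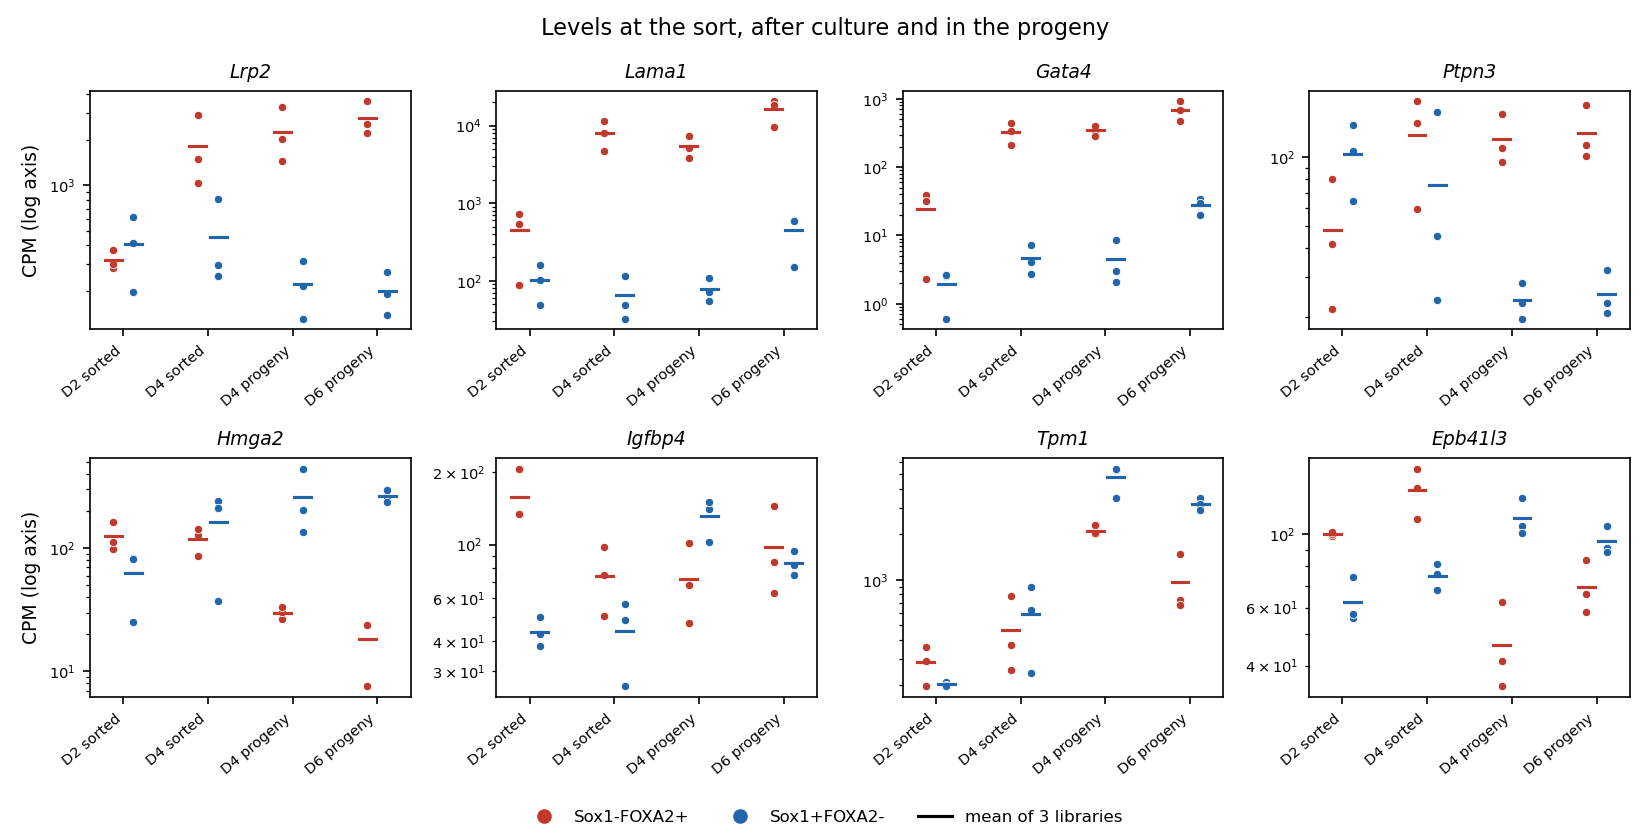
CPM on the scale of all 57 libraries (log axes) of 8 genes in cells sorted at D2 and D4 and in D4 and D6 progeny, with Sox1-FOXA2+ in red, Sox1+FOXA2- in blue, 3 libraries each and a bar for their mean. Lrp2, Ptpn3, Hmga2, Igfbp4, Tpm1 and Epb41l3 changed their difference between D2 and D4 progeny past the threshold, and Lama1 and Gata4 did not.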

How the data were processed

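RNA-seq libraries (SMART-Seq Stranded Kit) of D4 progeny were compared by their labels, Sox1-FOXA2+ (3) against Sox1+FOXA2- (3). Per the study's methods, the authors aligned reads with STAR, processed them with SAMtools and counted genes of GENCODE M21 (GRCm38) with featureCounts, whose versions and strand setting are not given in the sources used here. The deposited values are raw counts per gene, and no column was left unassigned (0).

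For testing, edgeR 4.0.16 was used under R 4.3.3 with limma 3.58.1 (quasi-likelihood F-test, robust spread, TMM factors, prior count 0.125), after genes had been filtered by filterByExpr (minimum count 10, minimum total count 15). The fit held the 9 D4 progeny libraries, with Sox1+FOXA2+ progeny as the third group, and p-values were adjusted after Benjamini and Hochberg over all genes tested. Changes of the difference were fitted jointly with D6 progeny, D4 sorted or D2 sorted cells. CPM use TMM-scaled library sizes. Tables and figures came from Python 3.11.15 (numpy 2.4.6, pandas 2.3.3, matplotlib 3.10.9). Of 200 genes simulated with a log2 change of 3 among 20697, edgeR recovered 53.5%, and 6.96% of its calls were false, against 42.9% for DESeq2 1.42.0. In simulations of the changes of the difference, 51.15% (D6 progeny), 87.45% (D4 sorted) and 78.74% (D2 sorted) of DESeq2 calls were false. For edgeR these shares were 3.90%, 8.57% and 9.52%. All shares of false calls depend on the number of genes changed, 200 in each simulation.

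The labels give both progeny replicates 1 to 3. Same-numbered libraries deviated together from their group means (r = 0.584, 0.524 and 0.342 across 5000 genes). Libraries of unlike numbers gave r from -0.562 to 0.3, the highest for Sox1-FOXA2+ replicate 2 with Sox1+FOXA2- replicate 3. The numbers were taken to pair the libraries, but the main calls come from the fit without the block. The fit blocked on the number is given beside the calls of named genes that it alters. It is also given beside list counts of several genes that it moves by over 1.5 times. The labels do not say which cultures were shared. Replicates of a group differed by far more than sampling noise (chi-square per degree of freedom from 131.8 to 407.1).

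Members and gene lists were chosen with earlier results of these data known, and 4 lists were written after the calls had been seen. The result of 1 gene is not reported here. The genes named are the reporter genes, members of the lists, the 15 largest and 15 smallest called fold changes without overlap between the groups, the 10 called genes of highest level per kb of exon in each direction and the called changes of the difference. Alternatives were DESeq2, other scalings and filters, the replicate block, other sets of libraries and leaving out each library.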

Additional observations from a re-analysis of the deposited data

Results flagged for a closer look

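The difference between the gates changed from D2 sorted cells to D4 progeny in 13 of 23600 genes (0.0551%), by a test of the difference itself. Time, medium (N2B27 at D2, serum afterwards), replating and sorting differ together between these stages. Differences at D2 alone were not tested, and their direction is read from the order of the libraries. Values below are the change of the log2 difference (Sox1-FOXA2+ over Sox1+FOXA2-, progeny minus D2) and CPM on the scale of all 57 libraries, Sox1-FOXA2+ first.

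In 9 genes the change was positive, towards the Sox1-FOXA2+ side. Those of parietal endoderm and uptake were Lrp2 (3.67 ± 0.54, adjusted p = 0.00738), Pth1r (4.32 ± 0.78, adjusted p = 0.0215) and Srgn (5.18 ± 0.96, adjusted p = 0.0403). Pth1r stood at 7.88, 19.3 and 19.3 against 9.09, 7.51 and 18.7 CPM at D2 and at 233, 208 and 54.8 against 7.61, 6.67 and 3.83 CPM in the progeny. Ptpn3, a tyrosine phosphatase, changed by 3.41 ± 0.55 (adjusted p = 0.00738): at 21.6, 80.5 and 41.8 against 64.7, 107 and 139 CPM its groups overlapped at D2, and at 155, 109.8 and 95.5 against 19.7, 23 and 28.2 CPM they did not in the progeny. Slc39a14, a zinc transporter, was lower in Sox1-FOXA2+ cells at D2 (22.9, 10.4 and 18.6 against 108, 75.7 and 41.7 CPM) and higher in their progeny (36.5, 27.4 and 44.99 against 5.498, 6.31 and 15.1 CPM), without overlap at either stage (4.07 ± 0.82, adjusted p = 0.0492). The same was seen for the Krüppel-like factor Klf9 (3.13 ± 0.57, adjusted p = 0.0215), at 19.5, 32.8 and 15.7 against 45.1, 38.3 and 109 CPM and then 72.2, 102 and 68.1 against 20.7, 22.4 and 32.2 CPM. The others were the malic enzyme Me1 (2.66 ± 0.52, adjusted p = 0.0403), Pfkl (2.26 ± 0.46, adjusted p = 0.0492) and the pluripotency factor Sall4 (2.34 ± 0.46, adjusted p = 0.0492).

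In 4 genes the change was negative, towards the Sox1+FOXA2- side. Hmga2 changed by -4.14 ± 0.66 (adjusted p = 0.0118) and Igfbp4, an IGF-binding protein, by -2.78 ± 0.45 (adjusted p = 0.00738). Igfbp4 stood at 134, 134 and 206 against 42.7, 38 and 50.01 CPM at D2 and at 68.1, 101 and 47.6 against 140.4, 149.8 and 102 CPM in the progeny, without overlap at either stage and in opposite directions. Epb41l3, a membrane skeleton protein (-2.02 ± 0.38, adjusted p = 0.0349), behaved likewise, at 98.8, 100.2 and 102 against 74.2, 55.99 and 57.5 CPM and then 34.7, 41.3 and 62.5 against 129, 106 and 101 CPM. Tpm1 changed by -1.70 ± 0.33 (adjusted p = 0.0403).

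With the replicate block, Sall4 (adjusted p = 0.0943), Slc39a14 (0.0537), Srgn (0.0519) and Pfkl (0.0519) were not called. Igfbp4 and Ptpn3 kept their calls whichever of the 12 libraries was left out. Lrp2 lost its call without D4 progeny Sox1+FOXA2- replicate 1 (adjusted p = 0.0987), Hmga2 without D4 progeny Sox1-FOXA2+ replicate 2 (adjusted p = 0.0824), and Pth1r without D2 Sox1-FOXA2+ replicate 1 (adjusted p = 0.0698), D4 progeny Sox1-FOXA2+ replicate 1 (0.144) or D4 progeny Sox1-FOXA2+ replicate 2 (0.14). The other 8 each lost their calls on leaving out several of the 12 in turn, D4 progeny Sox1+FOXA2- replicate 1 (adjusted p from 0.098 to 0.126) and D4 progeny Sox1-FOXA2+ replicate 2 (from 0.0824 to 0.214) among them in each case.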

How the results depend on the processing

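In place of the 408 genes called between the D4 progeny, DESeq2 called 937, edgeR scaled by total counts 266 (where the median of all genes shifted by -0.161), without a filter 716, with the replicate block 885 and in a fit of all 57 libraries 53; leaving out single libraries gave 241 to 443. For the D6 progeny, in place of 0 genes, DESeq2 called 66, total counts 1, no filter 124, the replicate block 1, the compared groups alone 1, and leaving out single libraries 0 to 7. For D4 sorted cells, in place of 0, DESeq2 called 359, no filter 28, and leaving out single libraries 0 to 2. For D2 sorted cells, in place of 13, DESeq2 called 521, its size factors in edgeR 22, total counts 8, no filter 152, the compared groups alone 22, all 57 libraries 1, and leaving out single libraries 4 to 24. An even spread estimate (non-robust) and libraries thinned to equal depth, both chosen after seeing the data, gave 2 genes each for the D6 progeny, and equal depth 22 for D2 sorted cells. Elsewhere these counts stayed within 1.5 times. The cause of these shifts was not tested.

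Of the named genes' fold changes under all alternatives, 2004 kept their side of the threshold, 393 fell short of it, 46 passed it anew and 4 turned sign, none of them called. Over fits that each left out 1 library, the log2 fold change of Nanog ran from -2.07 to 0.327 (above 0 without Sox1+FOXA2- replicate 3), that of Lama5 from -0.388 to 0.0924 (above 0 without Sox1+FOXA2- replicate 1) and that of Pou5f1 from -0.749 to 1.30, below 0 on leaving out Sox1-FOXA2+ replicate 1 and, at -0.236, Sox1+FOXA2- replicate 2. The prior count left every call as it was. Depth was lowest in replicate 1 of both progeny.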

Other observations

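Of the 10 lower genes with the highest level per kb of exon, 5 had not been described above. Myh10, non-muscle myosin IIB, had 1419, 1313 and 1313 against 3295, 3870.0 and 2869 CPM (log2 fold change -1.31 ± 0.24, adjusted p = 0.00433) and kept its call whichever library was left out. Cavin1, a coat protein of caveolae, had 261, 189 and 196 against 559, 463 and 361 CPM (-1.10 ± 0.25, adjusted p = 0.0247), a call lost without Sox1-FOXA2+ replicates 2 or 3 or Sox1+FOXA2- replicate 2 (adjusted p from 0.0507 to 0.11). Marcks, which binds actin and the plasma membrane, had 133, 127 and 81.4 against 367, 359 and 191 CPM (-1.43 ± 0.30, adjusted p = 0.0146), a call lost without Sox1-FOXA2+ replicate 3 (adjusted p = 0.0587). The small heat shock protein Hspb8 had 40.2, 65.95 and 61.5 against 126, 148 and 95.02 CPM (-1.14 ± 0.28, adjusted p = 0.0388), lost without Sox1-FOXA2+ replicates 1, 2 or 3 or Sox1+FOXA2- replicate 2 (adjusted p from 0.0583 to 0.178), and the RNA-binding protein Khdrbs3 had 115, 73.2 and 98.3 against 279, 262 and 167 CPM (-1.30 ± 0.32, adjusted p = 0.0357), lost without Sox1-FOXA2+ replicates 1, 2 or 3 or Sox1+FOXA2- replicates 1 or 2 (adjusted p from 0.0623 to 0.162). The groups did not overlap for any of these 5 genes.

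Of the called genes in the trophoblast and the endothelial and blood lists, the transcription factor Tead4, which acts in trophectoderm and elsewhere downstream of YAP, had 154, 127 and 75.96 against 23.9, 41.4 and 31.8 CPM (1.87 ± 0.32, adjusted p = 0.00205), and Runx1, a factor of blood and other lineages, had 133, 50.6 and 113 against 31.4, 22.8 and 28.3 CPM (1.85 ± 0.35, adjusted p = 0.00537). The selenoprotein Selenow had 115, 90.9 and 96.2 against 36.2, 47.9 and 38.1 CPM (1.30 ± 0.28, adjusted p = 0.0138), a call lost without Sox1+FOXA2- replicate 3 (adjusted p = 0.0719) or Sox1-FOXA2+ replicate 1 (0.0726).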
